A study of Mus musculus with 13 samples.

Results

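Cholesterol handling in mouse skeletal muscle was described through 7 genes: Srebf2, Insig1, Hmgcs1, Idi1, Sqle, Abca1 and Abcg1. They were chosen by name, with earlier results of these data known. The rows used are those of the raw count table whose identifiers map to these symbols on mouse build GRCm38. They are 7 of the 49315 gene identifiers in the table and 7 of the 16496 genes that passed a filter on low counts. The 13 samples were polyA-selected RNA libraries of skeletal muscle from 4 groups, which cross genotype with diet. The knockout (KO) animals lack the miR-181a2b2 locus systemically (miR-181a2b2-/-), and the flox animals are homozygous for the floxed, undeleted locus and are called WT in the sample titles. The groups were KO on the HFSC diet (n = 3), flox on HFSC (n = 4), KO on chow (n = 3) and flox on chow (n = 3). The labels do not spell out HFSC, and give no age, sex or strain. Hindlimb ischemia is named once for the series, with neither limb nor time given per sample. No label states that libraries are from separate animals, so the p-values here reflect variation among libraries that could be technical. The deletion is systemic, so no cell type was targeted.

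Cells hold their cholesterol within narrow limits through a pair of opposed transcription programmes. When membrane cholesterol is low, the transcription factor SREBP2, the product of Srebf2, is released from the endoplasmic reticulum and switches on the enzymes of sterol synthesis. INSIG1 is a target of this pathway and also its brake, since it holds the SREBP escort protein in the endoplasmic reticulum when sterols are plentiful. When oxysterols accumulate, the nuclear receptors LXR switch on the exporters ABCA1 and ABCG1, which load cholesterol onto lipoprotein particles. Macrophages are among the cells best known for this export programme. Srebf2, Insig1, Hmgcs1, Idi1 and Sqle thus stand for the low-sterol side, and Abca1 and Abcg1 for the high-sterol side. None of the 7 is an uptake receptor, and genes of uptake are given below from a wider list.

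Libraries held 20830943 to 45710227 counts (median 29011060), and the 7 genes had between 47 and 4456 reads in each library. Levels in CPM use library sizes scaled by TMM, the trimmed mean of M values, and levels in RPKM are CPM per kilobase of exon. On the first principal component, with 50.7% of the variance of log2 CPM, the 3 chow KO libraries and replicate 4 of chow flox lay between 51.3 and 88.6, against -67.8 to -13.3 for the other 9. Replicate 4 of chow flox thus stood with the chow KO libraries and apart from the other chow flox libraries. The labels give no batch. Values of the 7 genes are given with and without chow flox replicate 4 where its omission changed a call. Marker counts, and list genes not called in the main fit, were not read out without it. All 12 skeletal muscle markers had reads in every library, with a summed level of 109335 to 245661 CPM. The extraction protocol in the labels names white adipose tissue, and the 7 adipocyte markers summed to only 207 to 749 CPM. The precursor of the deleted miRNA is hardly caught by polyA-selected libraries and checks the labels poorly: Mir181a-2 had no read in any KO library, on HFSC or on chow, against 1 read in HFSC flox replicate 1, none in the other HFSC flox libraries, and 2, 1 and 0 reads in chow flox replicates 2, 3 and 4.

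The sequences below show what the deleted locus encodes and how it relates to the 7 genes. The locus yields miR-181a and miR-181b, which share a seed, the bases that pair with a target. Another miRNA, miR-33, is background to the export genes: it is encoded within an intron of Srebf2 and is known to repress Abca1 in mouse and human cells. The mature sequences, from RefSeq on GRCm38.p6, are given 5′ to 3′ with the seed, bases 2 to 8, in capitals.
miR-181a-5p (chr2:38852741-38852763, plus strand): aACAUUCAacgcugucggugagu
miR-181b-5p (chr2:38853845-38853868, plus strand): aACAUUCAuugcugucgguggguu
miR-33-5p (chr15:82198127-82198147, plus strand): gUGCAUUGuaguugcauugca

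None of the 7 genes held the miR-181 site TGAATGT in its longest annotated 3′ UTR, a site found in 17.0% of 21091 genes with a 3′ UTR. The miR-33 site CAATGCA was found in 7.77% of these genes, and among the 7 in Abca1 and Abcg1. Abca1 has 3 such sites close together, and Abcg1 has 2. They are printed on the gene's strand from GRCm38, with the site in capitals, 8 letters long where an A follows the 7 and 7 letters long otherwise. The sites of each gene lie so close together that their printed stretches share bases. A match is a description of letters and not evidence of a working site. No read of the miR-33 precursor was counted in any of the 13 libraries. PolyA-selected libraries hardly catch such precursors, so this does not show whether miR-33 was present.
Abca1, chr4:53033798-53033826, minus strand: tactgtactgacactattCAATGCAAtgc
Abca1, chr4:53033794-53033822, minus strand: gtactgacactattcaatgCAATGCActt
Abca1, chr4:53033783-53033811, minus strand: attcaatgcaatgcacttCAATGCAAcga
Abcg1, chr17:31114984-31115012, plus strand: gcagggactaacgcaacgCAATGCAAcgc
Abcg1, chr17:31114993-31115021, plus strand: aacgcaacgcaatgcaacgCAATGCAgac

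Promoters were searched because the 2 programmes act through different DNA elements. SREBP2 binds the sterol regulatory element, searched as TCACNCCAC, and LXR binds a direct repeat, searched as AGGTCA, 4 bases of any kind and AGGTCA again, both on either strand in the 250 bases before the RefSeq start. RefSeq promoters were at hand for 5 of the 7 genes: Hmgcs1, Idi1, Insig1, Srebf2 and Abca1. An exact sterol regulatory element stood only in Hmgcs1 among these, at bases -137 to -129 from the start, and was found in 1.05% of 32851 promoters. With 1 mismatch allowed, which 20.7% of promoters meet, Hmgcs1 had a further match at -220 to -212, Srebf2 at -162 to -154 and Insig1 at -9 to -1. The E-box CACGTG, found in 6.02% of promoters, stood in Insig1 at -101 to -96 and in Abca1 at -147 to -142. A direct repeat with up to 3 mismatches, which 18.5% of promoters hold, lay on the minus strand of Abca1 at -67 to -52, and also in Hmgcs1 and Insig1. So the loose repeat did not separate the LXR target from the SREBP2 targets. Matches this loose are common, and no match says only that the letters are not in the window. The 4 stretches are printed in the gene's direction, upstream of all annotated starts. Capitals mark the sterol element in Hmgcs1 and Srebf2, the E-box in Insig1 and the direct repeat in Abca1, and the loose sterol element of Insig1 falls outside the printed stretch.
Hmgcs1, chr13:119690101-119690350, plus strand: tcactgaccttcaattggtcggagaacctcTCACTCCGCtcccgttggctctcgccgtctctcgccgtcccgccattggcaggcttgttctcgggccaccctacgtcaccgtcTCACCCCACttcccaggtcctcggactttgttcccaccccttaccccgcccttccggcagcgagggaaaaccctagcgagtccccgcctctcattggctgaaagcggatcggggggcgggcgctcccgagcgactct
Srebf2, chr15:82147019-82147180, plus strand: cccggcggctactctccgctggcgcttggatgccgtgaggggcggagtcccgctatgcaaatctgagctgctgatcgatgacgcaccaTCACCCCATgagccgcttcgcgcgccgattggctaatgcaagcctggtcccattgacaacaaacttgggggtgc
Insig1, chr5:28071162-28071362, plus strand: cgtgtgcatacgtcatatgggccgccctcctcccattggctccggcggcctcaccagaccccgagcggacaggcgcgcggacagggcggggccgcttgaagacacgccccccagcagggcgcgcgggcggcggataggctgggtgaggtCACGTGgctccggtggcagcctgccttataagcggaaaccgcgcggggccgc
Abca1, chr4:53159896-53160145, minus strand: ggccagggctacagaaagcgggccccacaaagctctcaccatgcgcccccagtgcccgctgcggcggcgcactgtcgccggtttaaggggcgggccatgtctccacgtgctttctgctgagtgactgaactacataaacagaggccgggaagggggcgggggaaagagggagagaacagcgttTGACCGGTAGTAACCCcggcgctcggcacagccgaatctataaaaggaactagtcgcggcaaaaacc

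Per kilobase of exon, Hmgcs1 was the most abundant of the 7 in every group, at 10.3 RPKM in HFSC KO, 10.6 in HFSC flox, 9.0 in chow KO and 8.79 in chow flox. Abca1 came next in each group except chow KO, with 6.21, 5.57, 3.71 and 7.22 RPKM in the same order, and Insig1 had 3.79, 5.43, 4.01 and 3.58 RPKM. Srebf2 followed with 3.59, 3.67, 2.12 and 3.03 RPKM. Idi1 and Abcg1 lay close to 1 RPKM or below it in most groups: Idi1 had 0.999, 1.20, 0.999 and 0.921, and Abcg1 had 1.12, 0.841, 0.285 and 1.46. Sqle was lowest or next to lowest, at 0.438, 0.695, 0.492 and 0.581 RPKM. The order of Idi1 and Abcg1 differed between groups, as did that of Abca1 and Insig1, and neighbours in the order often lay within a SD of each other: Insig1 and Srebf2 in HFSC KO and chow flox, and Abca1 and Insig1 in HFSC flox and chow KO. In chow flox the SD of Abca1 reached its neighbours on both sides.

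**Figure D1:**
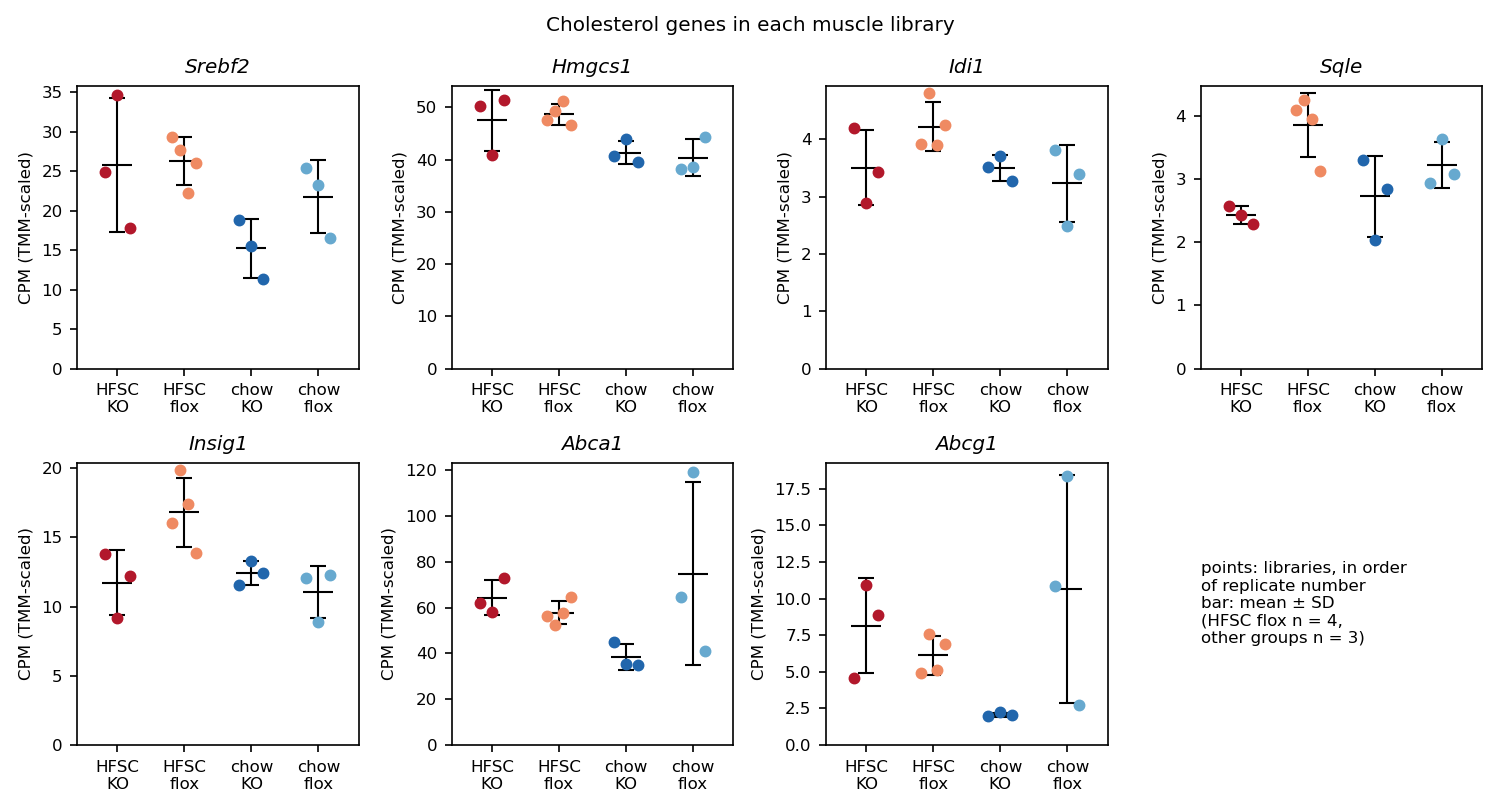
CPM of the 7 genes in each of the 13 libraries, by group, with points for libraries and bars for group means. Abcg1 lies between 1.98 and 2.24 CPM in the chow KO libraries and between 2.74 and 18.3 CPM in the chow flox libraries.

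Srebf2 encodes SREBP2 and lies on chromosome 15 (GRCm38, 82147181 to 82205379, plus strand). It had 24.9, 34.6 and 17.8 CPM in HFSC KO, and 29.3, 27.7, 22.3 and 26.1 CPM in HFSC flox. In chow KO it had 18.8, 15.6 and 11.3 CPM, and in chow flox 25.4, 23.3 and 16.6 CPM. The chow KO libraries were low: all 3 lay below the 4 HFSC flox libraries, but they overlapped those of HFSC KO and of chow flox.

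Insig1, the sterol-sensing brake on SREBP processing, lies on chromosome 5 (28071363 to 28078662, plus strand). It had 13.8, 9.21 and 12.2 CPM in HFSC KO, and 16.1, 19.9, 17.4 and 13.9 CPM in HFSC flox. In chow KO it had 11.5, 13.3 and 12.4 CPM, and in chow flox 12.05, 8.89 and 12.3 CPM. The 4 HFSC flox libraries were the highest of all 13, although the lowest of them exceeded the highest HFSC KO library by little.

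Hmgcs1 makes HMG-CoA, the first dedicated intermediate of the mevalonate pathway, and lies on chromosome 13 (119690379 to 119708260, plus strand). It had 50.2, 40.8 and 51.4 CPM in HFSC KO, and 47.5, 49.3, 51.2 and 46.6 CPM in HFSC flox. In chow KO it had 40.6, 43.9 and 39.6 CPM, and in chow flox 38.2, 38.5 and 44.4 CPM. The HFSC libraries were higher than the chow libraries with 1 exception, HFSC KO replicate 3, which lay among them. The antisense gene Gm48342 covers 557 bases, or 12.1%, of its exons, and the strand setting of the counts is not given in the sources used here, so its reads cannot be told apart from those of Hmgcs1.

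Idi1 isomerises the building block of sterols and other isoprenoids, and lies on chromosome 13 (8885501 to 8892451, plus strand). Its 13 values ran from 2.48 to 4.81 CPM, with means of 3.50 ± 0.655 CPM in HFSC KO, 4.22 ± 0.427 in HFSC flox, 3.50 ± 0.221 in chow KO and 3.23 ± 0.678 in chow flox (SD, n = 3, 4, 3 and 3). Another annotated transcript, Gm48574, covers 323 of its exon bases on the other strand. Every pair of its groups overlapped except HFSC flox and the chow groups, where HFSC flox was higher.

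Sqle, which makes the epoxide of squalene and is a rate-limiting step of the later pathway, lies on chromosome 15 (59315077 to 59331192, plus strand). It had 2.58, 2.43 and 2.29 CPM in HFSC KO, and 4.09, 4.26, 3.96 and 3.12 CPM in HFSC flox. In chow KO it had 3.31, 2.04 and 2.84 CPM, and in chow flox 2.94, 3.63 and 3.09 CPM. With 51 to 148 reads in a library it was thinly counted. All 3 HFSC KO libraries lay below all 4 HFSC flox libraries, while the chow groups overlapped.

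Abca1, which passes cholesterol to lipid-poor apolipoprotein A-I, lies on chromosome 4 (53030787 to 53159895, minus strand). It had 62.1, 58.1 and 72.7 CPM in HFSC KO, and 56.2, 52.6, 57.8 and 64.4 CPM in HFSC flox. In chow KO it had 45.0, 35.3 and 35.0 CPM, and in chow flox 64.5, 119.0 and 40.9 CPM. The chow KO libraries were low and close together, and the 3 chow flox libraries were spread widely, with replicate 4 inside the chow KO range.

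Abcg1, which passes cholesterol to mature lipoprotein particles, lies on chromosome 17 (31057675 to 31117988, plus strand). It had 4.58, 10.9 and 8.90 CPM in HFSC KO, and 4.90, 7.60, 5.14 and 6.92 CPM in HFSC flox. In chow KO it had 1.98, 2.24 and 2.03 CPM, and in chow flox 10.9, 18.3 and 2.74 CPM. The chow KO libraries were the 3 lowest of the 13, and chow flox replicate 4 was the next.

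On chow, the knockout libraries had less mRNA of both LXR-driven exporters, while none of the SREBP2 targets passed the test in either direction. Abcg1 fell to 2.08 ± 0.138 CPM in chow KO, against 10.7 ± 7.80 CPM in chow flox (SD, n = 3 each), a log2 fold change of -2.36 ± 0.53 (SE; adjusted p = 0.0210). Abca1 fell to 38.4 ± 5.70 CPM in chow KO, against 74.8 ± 40.1 CPM in chow flox (SD, n = 3 each), a log2 fold change of -0.96 ± 0.28 (SE; adjusted p = 0.0451). Both tests are edgeR's quasi-likelihood test over 16496 genes with Benjamini-Hochberg adjustment at a threshold of 0.05, as are all those that follow. Thus 2 of the 7 genes were called, both lower, where 11.5% of all genes tested were called and 10.1% were called lower. The groups did not overlap for 1 of the 7, Abcg1, which was lower in chow KO, as were 13.9% of all genes by that measure and 24.8% in either direction. The median log2 fold change of the 7 was -0.24, beside -0.007 over all genes tested.

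The calls on the exporters rest on few libraries. Without chow flox replicate 3 the values were -0.48 for Abca1 (adjusted p = 0.224) and -1.76 for Abcg1 (adjusted p = 0.103), and both calls also ended when chow flox replicate 2 or any of the chow KO libraries was left out. Without chow flox replicate 4 the values were -1.25 and -2.81, with adjusted p of 0.000610 and 9.13e-05, and a fit on the 6 chow libraries alone gave adjusted p of 0.204 and 0.191.

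The other members on chow had smaller differences, none past the threshold. Srebf2 averaged 15.2 ± 3.77 CPM in chow KO and 21.8 ± 4.62 CPM in chow flox (SD, n = 3 each), a log2 fold change of -0.52 ± 0.24 (adjusted p = 0.153). Without chow flox replicate 4 it was called, at an adjusted p of 0.0451. The log2 fold changes were -0.24 ± 0.21 for Sqle (adjusted p = 0.425), and for Insig1 0.16 ± 0.18 (adjusted p = 0.525), Idi1 0.12 ± 0.20 (adjusted p = 0.700) and Hmgcs1 0.03 ± 0.11 (adjusted p = 0.839). For Hmgcs1, the most deeply counted enzyme, the chow groups differed by less than the spread between replicates.

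Markers of macrophages, cells that use both exporters heavily, moved with the chow contrast. Of 14 macrophage markers 13 were lower in chow KO, with a median log2 fold change of -2.88, and their summed level was 46.2 to 82.1 CPM in chow KO, against 121 to 1074 CPM in chow flox. None of the 14 was at 0 in any library. All 10 fibroblast markers were lower too, with summed levels of 416 to 653 CPM in chow KO and 1295 to 7369 CPM in chow flox, as were 2 of 8 endothelial markers and 8 of 12 cell cycle genes, the last with a median of -2.32. In bulk tissue, fewer cells of a type and less RNA per cell cannot be told apart. Per 100 CPM of summed macrophage markers, Abca1 had 52.2 to 75.8 CPM in chow KO, against 11.1 to 33.9 CPM in chow flox. By the same measure Abcg1 had 2.41 to 4.38 CPM in chow KO, against 1.71 to 2.71 CPM in chow flox. By these ratios neither exporter was lower in chow KO, but such a ratio rises for any gene that fell less than the markers. It thus does not show what lowered the exporters. Lyz2 made up much of the sum, at a mean of 309 CPM in chow flox and 23.8 CPM in chow KO. What part the markers had in the result was not tested.

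**Figure D2:**
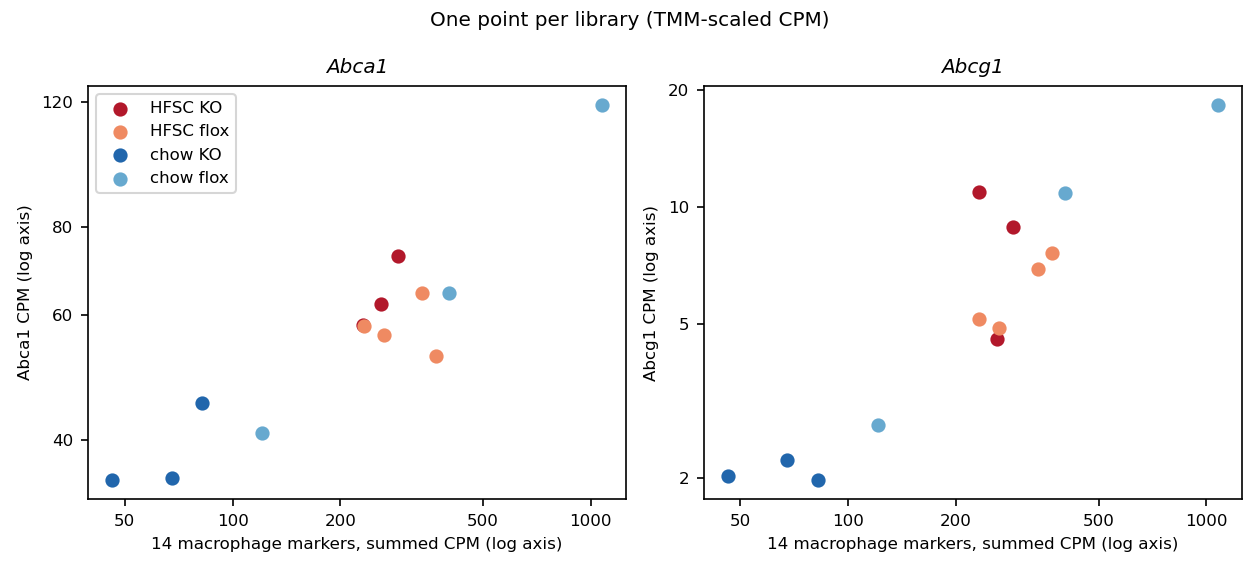
CPM of Abca1 and Abcg1 against the summed CPM of 14 macrophage markers in the 13 libraries, on log axes, coloured by group. The chow KO libraries lie at 46.2 to 82.1 CPM of markers, and the chow flox libraries at 121 to 1074 CPM.

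Genes around the 7 were taken from lists of the pathway. Of 18 other sterol synthesis enzymes, 2 rose in chow KO and 16 were not called, with a median log2 fold change of 0.02. Over all genes 11.5% were called in this comparison, 1.38% higher and 10.1% lower, and the share of enzymes called was near the 11.5%. Fdft1, which commits isoprenoids to squalene, rose to 79.1 ± 5.64 CPM in chow KO, against 43.3 ± 16.8 CPM in chow flox (SD, n = 3 each), by 0.87 ± 0.23 on the log2 scale (adjusted p = 0.0304). Hsd17b7, which acts later, in demethylation of the sterol ring, rose to 20.5 ± 2.97 CPM in chow KO, against 9.07 ± 6.17 CPM in chow flox, by 1.19 ± 0.36 (adjusted p = 0.0495). Of 11 genes of SREBP processing, Srebf1 rose and Erlin2 fell. Srebf1, which encodes the fatty acid regulator SREBP1 and is itself an LXR target, had 71.7 ± 9.30 CPM in chow KO and 44.4 ± 5.06 CPM in chow flox, a log2 fold change of 0.69 ± 0.18 (adjusted p = 0.0330). Erlin2, which helps degrade sterol-regulated proteins, fell by 0.34 (adjusted p = 0.0457).

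Of 12 genes of cholesterol uptake and intracellular transport, 4 fell in chow KO and 8 were not called, with a median of -0.58, where 10.1% of all genes were called lower. Soat1, which esterifies cholesterol for storage, fell by 2.36 on the log2 scale, and Lipa, the lysosomal enzyme that frees cholesterol from its esters, fell by 2.01 (adjusted p = 0.0196 for each). The lipoprotein receptor Lrp1 fell by 1.45 (adjusted p = 0.0189) and Npc2, which moves cholesterol out of lysosomes, by 0.94 (adjusted p = 0.0248). Of 11 other LXR receptors and targets, 2 fell, 1 rose and 8 were not called, with a median of 0.24. Pltp, a phospholipid transfer protein, fell by 2.14 (adjusted p = 0.0181) and Arl4c by 2.33 (adjusted p = 0.0240). Nr1h3, the gene of the receptor LXR alpha, rose by 0.44 (adjusted p = 0.0478). Of 4 tested oxysterol enzymes none was called, and the smallest p was that of Cyp7b1, at -2.10 ± 0.70 on the log2 scale (adjusted p = 0.0686). Every one of these calls was lost without chow flox replicate 3, and also without chow KO replicate 2 or 3. None was kept in a fit on the 6 chow libraries alone, and those on Srebf1 and Nr1h3 were also lost with library totals as the scale.

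On HFSC, the main fit called fewer genes between knockout and flox libraries than on chow. None of the 7 genes passed the test, where 0.0182% of all genes did. Over all genes 3 were called by edgeR, 142 by DESeq2, and 1721 had an unadjusted p under 0.05. Sqle averaged 2.43 ± 0.146 CPM in HFSC KO (SD, n = 3) and 3.86 ± 0.502 CPM in HFSC flox (SD, n = 4), a log2 fold change of -0.66 ± 0.19 (adjusted p = 0.283). Insig1 averaged 11.7 ± 2.34 CPM in HFSC KO and 16.8 ± 2.5 CPM in HFSC flox, a log2 fold change of -0.52 ± 0.17 (adjusted p = 0.315). These were the 2 of the 7 whose groups did not overlap, both lower in HFSC KO, as were 5.31% of all genes and 12.7% in either direction. Both differed more than on chow, where Sqle had -0.24 and Insig1 0.16. On HFSC, the unadjusted intervals of 1.96 SE on either side were -1.04 to -0.28 for Sqle and -0.84 to -0.19 for Insig1. These use a normal multiple, so with few libraries they are narrower than 95% intervals of the test itself.

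The remaining members were close to each other across genotype on HFSC. Log2 fold changes were, for Idi1, -0.27 ± 0.19 (adjusted p = 0.667), Hmgcs1 -0.04 ± 0.10 (adjusted p = 0.941) and Srebf2 -0.03 ± 0.22 (adjusted p = 0.978). The exporters, lower in chow KO, averaged slightly more in HFSC KO than in HFSC flox: Abca1 by 0.16 ± 0.26 (adjusted p = 0.889) and Abcg1 by 0.41 ± 0.45 (adjusted p = 0.814). The median of the 7 was -0.04. Macrophage markers summed to 231 to 289 CPM in HFSC KO, against 233 to 370 CPM in HFSC flox, and none of the 14 was called.

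No gene of the wider lists passed the test on HFSC. Among the 18 synthesis enzymes, median 0.01, the smallest p-values were those of Msmo1, a sterol demethylation enzyme, at -0.53 ± 0.20 (adjusted p = 0.393), and Cyp51, which acts upstream of it, at -0.45 ± 0.18 (adjusted p = 0.412). Among the 11 SREBP processing genes, median 0.02, they were Srebf1 at -0.66 ± 0.17 (adjusted p = 0.240) and the protease gene Mbtps1 at 0.25 ± 0.09 (adjusted p = 0.374). Srebf1 thus had a difference of opposite sign to that on chow. The uptake and LXR lists had medians of 0.05 and -0.01, and their smallest p was that of the sterol carrier Stard3, at 0.39 ± 0.10 (adjusted p = 0.232).

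**Figure D3:**
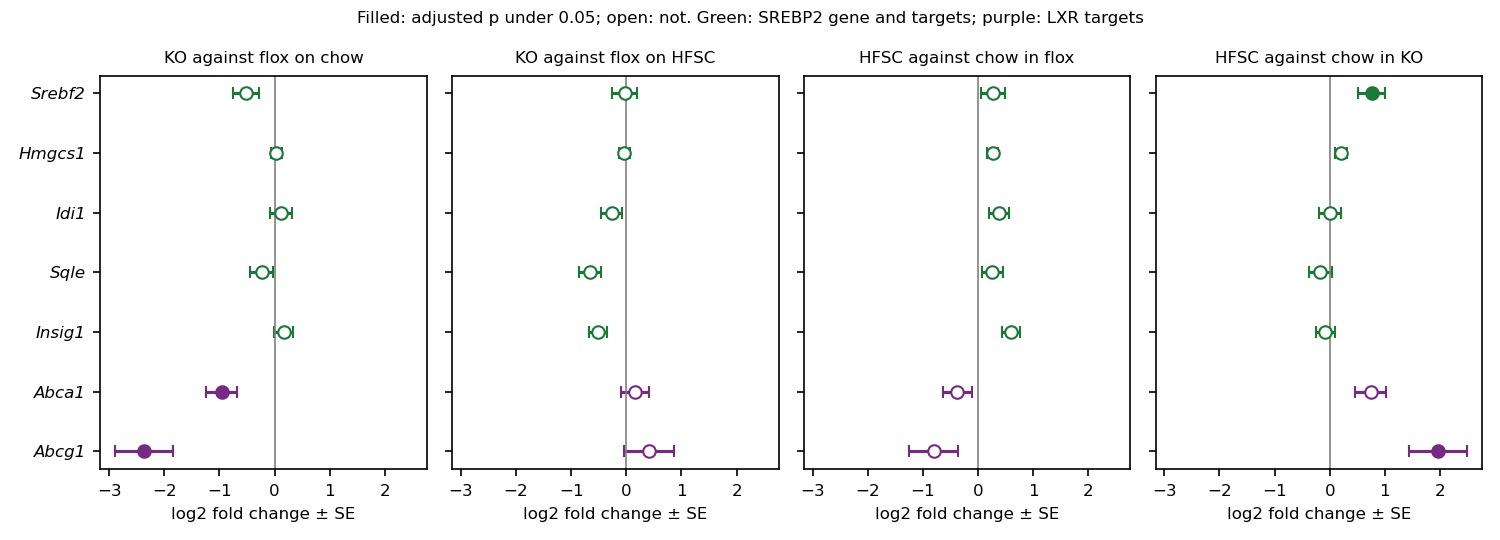
Log2 fold changes of the 7 genes, with bars of SE on either side, in the 4 comparisons of genotype and diet, filled where the adjusted p was under 0.05. Filled points are Abca1 and Abcg1 for KO against flox on chow, and Srebf2 and Abcg1 for HFSC against chow in KO.

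In flox animals, none of the 7 genes passed the test for HFSC against chow, where 0.418% of all genes did. Insig1 averaged 16.8 ± 2.5 CPM in HFSC flox (SD, n = 4) and 11.1 ± 1.89 CPM in chow flox (SD, n = 3), a log2 fold change of 0.60 ± 0.17 (adjusted p = 0.157). It passed without chow flox replicate 4, at 0.68 (adjusted p = 0.0403), and with DESeq2, at 0.61 (adjusted p = 0.0480). The difference was 0.27 ± 0.10 for Hmgcs1 (adjusted p = 0.288) and for Idi1 0.38 ± 0.19 (adjusted p = 0.416). These 3 were the members whose groups did not overlap, all higher in HFSC flox, as were 4.26% of all genes and 9.86% in either direction. Sqle had 0.25 ± 0.19 (adjusted p = 0.618) and Srebf2 0.27 ± 0.23 (adjusted p = 0.656). The exporters had negative values with wide errors, Abca1 -0.37 ± 0.26 (adjusted p = 0.590) and Abcg1 -0.81 ± 0.45 (adjusted p = 0.487). The value of Abca1 was 0.14 without chow flox replicate 3, and that of Abcg1 was -0.17. Abcg1 passed the threshold without chow flox replicate 4, at -1.25 (adjusted p = 0.0279).

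No gene of the wider lists was called for diet in flox in the main fit. Without chow flox replicate 4 the count of called genes went from 69 to 1456, and the lists were not read out in that fit. The smallest adjusted p-values were those of Lpcat3, an LXR-driven phospholipid enzyme, at 0.53 ± 0.15 (adjusted p = 0.161), Lss, which closes the sterol ring, at -0.49 ± 0.16 (adjusted p = 0.220), and Acat2, at the head of the pathway, at -0.61 ± 0.20 (adjusted p = 0.226). List medians lay between -0.09 and 0.04 for synthesis, SREBP processing, uptake and LXR genes.

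In knockout animals, HFSC against chow gave higher Abcg1 and Srebf2, while none of the 4 SREBP2 targets was called. Abcg1 rose to 8.14 ± 3.25 CPM in HFSC KO, against 2.08 ± 0.138 CPM in chow KO (SD, n = 3 each), a log2 fold change of 1.97 ± 0.52 (adjusted p = 0.0192). Srebf2 rose to 25.8 ± 8.48 CPM in HFSC KO, against 15.2 ± 3.77 CPM in chow KO (SD, n = 3 each), a log2 fold change of 0.76 ± 0.24 (adjusted p = 0.0386). Abca1 averaged 64.3 ± 7.54 CPM in HFSC KO and 38.4 ± 5.70 CPM in chow KO, a log2 fold change of 0.74 ± 0.28 that missed the threshold (adjusted p = 0.0674) but passed it in a fit on the 6 KO libraries alone (adjusted p = 0.00310). Thus 2 of the 7 were called, both higher, where 25.5% of all genes were called and 14.9% were called higher. The groups did not overlap for 2 of the 7, Abca1 and Abcg1, both higher in HFSC KO, as were 26.8% of all genes and 50.6% in either direction. These shares of the members are near those of all genes. The same chow KO libraries are the low side of the genotype contrast on chow, so the higher Abcg1 here and the lower Abcg1 there share them.

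The SREBP2 targets in knockout animals had log2 fold changes of 0.20 ± 0.11 for Hmgcs1 (adjusted p = 0.177), -0.00 ± 0.20 for Idi1 (adjusted p = 0.997), -0.08 ± 0.18 for Insig1 (adjusted p = 0.761) and -0.17 ± 0.21 for Sqle (adjusted p = 0.561). Hmgcs1 passed with library totals as the scale, at 0.38 (adjusted p = 0.0430). The call on Srebf2 was lost without any 1 of HFSC KO replicates 2 and 3 and chow KO replicates 2 and 3, with values down to 0.48. That on Abcg1 was lost without any 1 of HFSC KO replicates 3 and 4 and the 3 chow KO libraries, with adjusted p up to 0.0717 and values of 1.69 to 2.02 in those fits. Macrophage markers moved with this contrast as well. Of the 14, 10 were higher in HFSC KO with a median of 1.97, as were all 10 fibroblast and all 8 endothelial markers, 4 of 7 adipocyte markers and 10 of 12 cell cycle genes. Over all genes 14.9% were called higher. Summed endothelial markers were 497 to 549 CPM in HFSC KO, against 196 to 238 CPM in chow KO. The part of these markers in the higher Abcg1 and Srebf2 was not tested.

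Of the 18 other synthesis enzymes, 4 fell on HFSC in knockout animals, none rose and 14 were not called, with a median of -0.23 beside 0.02 over all genes. Over all genes 25.5% were called in this comparison, 10.6% lower and 14.9% higher, and the share of enzymes called was near the 25.5%. Hsd17b7 fell to 5.41 ± 0.186 CPM in HFSC KO, against 20.5 ± 2.97 CPM in chow KO, by 1.92 on the log2 scale (adjusted p = 0.00535). Fdft1 fell to 38.9 ± 4.55 CPM in HFSC KO, against 79.1 ± 5.64 CPM in chow KO, by 1.02 (adjusted p = 0.00953). Lss fell by 0.88 (adjusted p = 0.00568) and Sc5d, a late desaturase, by 0.63 (adjusted p = 0.0223). The calls on Hsd17b7, Fdft1 and Lss held in every alternative run, the omission of each library included, and that on Sc5d was lost in 4 of 6 such omissions, those of HFSC KO replicates 3 and 4 and chow KO replicates 2 and 3.

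Of 11 SREBP processing genes, Srebf1 fell to 38.2 ± 4.35 CPM in HFSC KO, against 71.7 ± 9.30 CPM in chow KO, by 0.91 (adjusted p = 0.00673), a call that held in every alternative. Stard4, a sterol carrier and itself an SREBP2 target, rose by 1.06 ± 0.28 (adjusted p = 0.0200), and Mbtps1, which encodes the first protease that cleaves SREBPs, by 0.38 ± 0.10 (adjusted p = 0.0166). Of 12 uptake and transport genes 4 rose and none fell, with a median of 0.60, where 14.9% of all genes were called higher: Scarb1, a lipoprotein receptor, by 1.29 ± 0.32 (adjusted p = 0.0149), Lipa by 1.40 ± 0.43 (adjusted p = 0.0328), Lrp1 by 1.16 ± 0.30 (adjusted p = 0.0169) and the sterol transporter gene Gramd1b by 0.69 ± 0.23 (adjusted p = 0.0439). Of 11 LXR genes, Arl4c rose by 1.98 ± 0.55 (adjusted p = 0.0231) and Pltp by 1.45 ± 0.43 (adjusted p = 0.0279), while Rxra, the partner receptor of LXR, fell by 0.93 (adjusted p = 0.0185), with a list median of -0.23. Of 4 oxysterol enzymes Cyp46a1 rose by 1.33 ± 0.43 (adjusted p = 0.0417) at levels of 0.882 ± 0.373 CPM in HFSC KO and 0.352 ± 0.180 CPM in chow KO. Each of these calls except that on Srebf1 was lost without at least 1 of the 6 KO libraries.

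**Figure D4:**
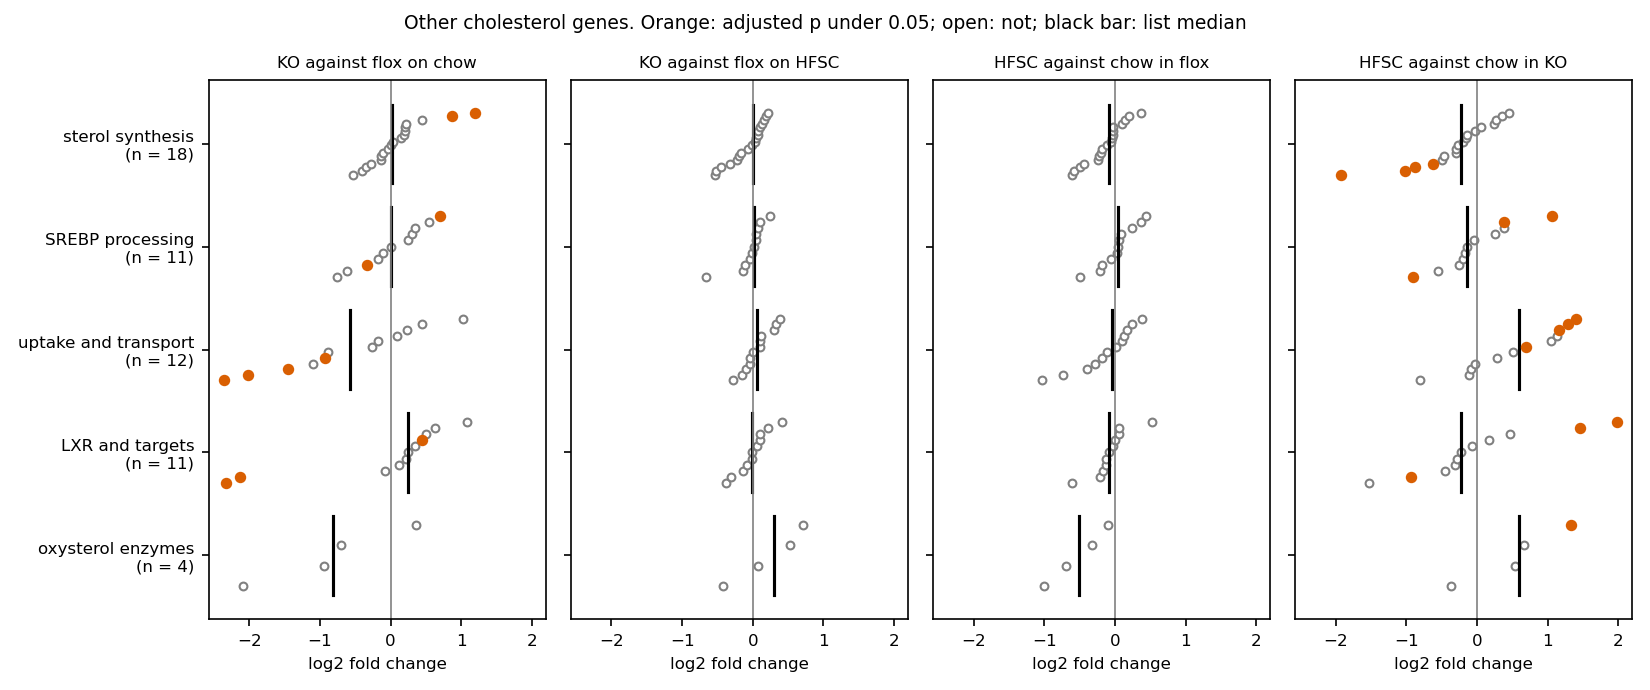
Log2 fold changes of the genes of the sterol synthesis, SREBP processing, uptake and transport, LXR and oxysterol lists in the 4 comparisons, 1 point a gene, filled orange where the adjusted p was under 0.05, with a black bar at each list's median. In HFSC against chow in KO the orange synthesis enzymes, 4 of 18, all lie below 0.

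Averaged over the genotypes, 1 of the 7 genes was called for diet, where 15.1% of all genes were called and 8.98% were called higher. This share of the members is near that of all genes. Hmgcs1 averaged 47.5 ± 5.78 CPM in HFSC KO (SD, n = 3) and 48.7 ± 2.02 CPM in HFSC flox (SD, n = 4), against 41.3 ± 2.26 CPM in chow KO and 40.4 ± 3.49 CPM in chow flox (SD, n = 3 each). It rose by 0.23 ± 0.07 on the log2 scale (adjusted p = 0.0473), a call that was lost in 10 of 13 fits that left out 1 library. Srebf2 had 0.52 ± 0.17 (adjusted p = 0.0536), Insig1 0.26 ± 0.12 (adjusted p = 0.155), Idi1 0.19 ± 0.14 (adjusted p = 0.348) and Sqle 0.04 ± 0.14 (adjusted p = 0.860). Abca1 had 0.18 ± 0.19 (adjusted p = 0.525) and Abcg1 0.58 ± 0.34 (adjusted p = 0.257). Abca1 passed without chow flox replicate 3, at 0.45 (adjusted p = 0.0246). Srebf2 passed with DESeq2 (adjusted p = 0.0277) and without chow flox replicate 3, chow KO replicate 1 or HFSC KO replicate 4, with values of 0.55 to 0.61. Of the 18 other synthesis enzymes, 4 fell with HFSC, none rose and 14 were not called, where 6.17% of all genes were called lower. Log2 fold changes over this list ran from -1.07 to 0.32. Those that fell were Hsd17b7 by 1.07 (adjusted p = 0.0148), Lss by 0.68 (adjusted p = 0.00368), Fdft1 by 0.60 (adjusted p = 0.0230) and Acat2 by 0.54 (adjusted p = 0.0306). Stard4 rose by 0.71 (adjusted p = 0.0282), Scarb1 by 0.70 (adjusted p = 0.0468) and Lpcat3 by 0.35 (adjusted p = 0.0456). Of these 7 calls, those on Hsd17b7 and Lss held without any 1 library.

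Other gene groups also moved with diet averaged over the genotypes. All 8 slow fibre genes were lower on HFSC, with a median of -2.82, and they summed to 772 to 1272 CPM in HFSC KO and 819 to 2067 CPM in HFSC flox, against 8611 to 10164 CPM in chow KO and 6898 to 8884 CPM in chow flox. Of 15 clock genes 3 were higher and 10 lower. Higher on HFSC were all 8 endothelial markers (median 0.75), 10 of 12 cell cycle genes (median 1.60), 7 of 10 fibroblast markers (median 1.14), 2 of 14 macrophage markers (median 0.70) and 2 of 7 adipocyte markers (median 0.64). Over all genes 8.98% were called higher and 6.17% lower. The part of these gene groups in the diet results was not tested.

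The test of whether genotype acted differently on the 2 diets called none of the 16496 genes, so that 0% of all genes and 0 of the 7 passed. Over all genes 4811 had an unadjusted p under 0.05, the smallest adjusted p was 0.0625, and DESeq2 called 1906. The difference of KO against flox on HFSC minus that on chow was 2.77 ± 0.69 for Abcg1 (adjusted p = 0.0691), 1.12 ± 0.38 for Abca1 (adjusted p = 0.0995) and -0.68 ± 0.24 for Insig1 (adjusted p = 0.106). It was 0.49 ± 0.33 for Srebf2 (adjusted p = 0.335), -0.42 ± 0.28 for Sqle (adjusted p = 0.325), -0.38 ± 0.27 for Idi1 (adjusted p = 0.357) and -0.07 ± 0.15 for Hmgcs1 (adjusted p = 0.772). Without chow flox replicate 4 the values of Abcg1, Abca1 and Insig1 were 3.22, 1.41 and -0.76, with adjusted p of 0.000472, 0.00250 and 0.0316. With DESeq2 that of Abcg1 was 2.75 (adjusted p = 0.00356). Srebf1 had the smallest adjusted p over all genes, with a difference of -1.35 ± 0.25 (adjusted p = 0.0625).

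Set side by side, the SREBP2 targets covered a narrower range over the 13 libraries than the LXR targets. The first value averages 4 genes and the second 2, and the LXR range was widest in chow flox, at 3.42 to 5.55. The mean log2 CPM of Hmgcs1, Sqle, Idi1 and Insig1 was 3.06 ± 0.188 in HFSC KO, 3.43 ± 0.125 in HFSC flox, 3.07 ± 0.0389 in chow KO and 3.05 ± 0.117 in chow flox (SD, n = 3, 4, 3 and 3). The HFSC flox libraries were the high ones, at 3.28 to 3.59, above all others. The mean of Abca1 and Abcg1 was 4.47 ± 0.335, 4.23 ± 0.165, 3.18 ± 0.0823 and 4.57 ± 1.07 in the same groups. The SREBP2 mean minus the LXR mean was -1.41 ± 0.498 in HFSC KO, -0.80 ± 0.222 in HFSC flox, -0.10 ± 0.0553 in chow KO and -1.52 ± 1.18 in chow flox. Single libraries had -0.85, -1.80 and -1.59 in HFSC KO, and -0.65, -0.74, -0.67 and -1.13 in HFSC flox. In chow KO they had -0.14, -0.13 and -0.04, and in chow flox -1.63, -2.63 and -0.29. The 3 chow KO libraries thus had the smallest gaps of the 13, with chow flox replicate 4 next to them.

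KO against flox, this gap differed by 1.41 on chow and by -0.62 on HFSC, so the sign differed between diets. HFSC against chow, it differed by 0.72 in flox and by -1.31 in KO. These are values without a test, since the genes were chosen with earlier results of these data known. Without chow flox replicate 3 the chow value was 0.86 and the flox diet value 0.16, and without chow flox replicate 4 they were 2.03 and 1.33. In no alternative did any of the 4 values change sign.

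**Figure D5:**
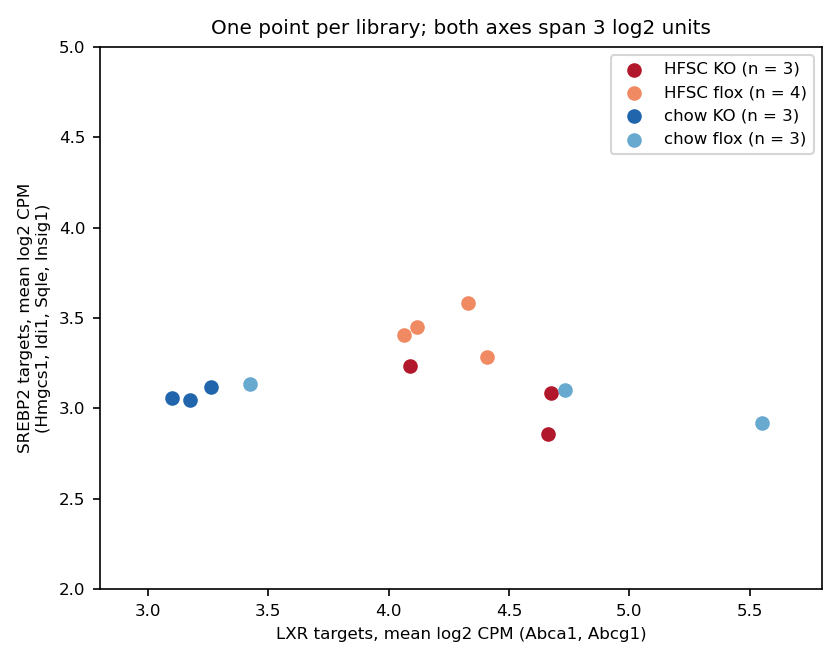
Mean log2 CPM of the 4 SREBP2 targets against that of the 2 LXR targets in each of the 13 libraries, coloured by group. The LXR means span 3.10 to 5.55 and the SREBP2 means 2.86 to 3.59.

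The genes whose levels over the 13 libraries were most like each member were named by the highest Pearson correlation of log2 CPM, among 12148 genes that averaged 1 CPM or more. These correlations pool the groups and are given as a description. Idi1 was most like Insig1 (r = 0.89), and Insig1 in turn had Idi1 in second place, so these SREBP2 targets named each other. For Abca1 the nearest were Ifitm2 and Irak3 (r = 0.98 each) and Gpm6b (r = 0.97), and for Abcg1 they were Sh3gl1, Myo9b and Edem1 (r = 0.97 each). Srebf2 was nearest to Scml4 (r = 0.95), Dlg2 and Cmip (r = 0.94 each). The nearest genes of Hmgcs1 were Glt28d2 (r = 0.94), mt-Tl1 and Rnf2 (r = 0.88 each), and those of Sqle were Tmem263 (r = 0.90), Cstf3 (r = 0.87) and Rfx3 (r = 0.85). Neither Hmgcs1 nor Sqle had another member among its nearest 3.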

How the data were processed

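The 13 polyA-selected libraries are of mouse skeletal muscle. The authors deposited raw counts, 1 whole number per Ensembl gene and library. Trimmomatic 0.36, STAR 2.5.2b, featureCounts of Subread 1.5.2 and build GRCm38 are named in the submitters' processing notes. Not given in the sources used here are the annotation release, the strand setting and how reads that align in several places were counted, so reads of overlapping genes cannot be told apart. Groups come from the genotype and diet labels. GENCODE M21 supplied symbols for 48970 of 49315 identifiers, coordinates and exon lengths. Where no read was counted, up to 3 counts are allowed, which is 0.0656 to 0.144 CPM depending on the library. This limit covers counting error only. Chi-square per degree of freedom between replicates was 10.5 to 193, more than sampling noise.

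The quasi-likelihood F test of edgeR 4.0.16 (R 4.3.3) was run on all 13 libraries with 4 group means, TMM library sizes and filterByExpr. Adjustment was by Benjamini-Hochberg over 16496 genes at a threshold of 0.05. SE is the absolute log2 fold change divided by the square root of F, and log2 CPM used a prior count of 2. The fit was also run on simulated data with no outlying library such as chow flox replicate 4. That run thus does not bear on results that depend on this library. As alternatives, RLE size factors (relative log expression), library totals, no filter, the replicate number as a block, only the groups compared, DESeq2 1.42.0 and the omission of each library were tried. The members, gene lists and tests were chosen with earlier results of these data known. From each cholesterol list up to 4 called genes a direction are named, by smallest p, or the 2 smallest p where none was called. Alternatives for the called list genes were added after the data were seen.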

Additional observations from a re-analysis of the deposited data

How the results depend on the processing

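Of 536 alternative values of members that were not called, 520 kept their side of the threshold and 16 passed it, 0 of those with a changed sign. Counts of called genes varied more. For KO against flox on chow the 1898 became 3096 with library totals (80 higher and 3016 lower, with the median of all genes at -0.35), 3193 with DESeq2, 2 with only the groups compared and 0 with the replicate block. Leaving out 1 library gave 0 to 7261. For KO against flox on HFSC the 3 became 22 without the filter, 142 with DESeq2, 0 with library totals, the block or only the groups compared, and 0 to 12 with a library left out. For HFSC against chow the 69 in flox became 365 with DESeq2, 4 with only the groups compared and 15 to 1456 with a library left out. The 4201 in KO became 2382 with the block and 1459 to 2975 with a library left out. With library totals they were 3453, of which 2407 were higher and 1046 lower, against 2459 and 1742 by TMM. The 2499 averaged over the genotypes became 1559 with library totals (761 higher and 798 lower, against 1482 and 1017), 1504 with the block and 1217 to 4048 with a library left out. The 0 of the interaction became 161 without the filter, 1906 with DESeq2 and 0 to 5928 with a library left out. The cause of these shifts was not tested.

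Called members that lost their call kept their direction. For KO against flox on chow, Abca1 had -0.97 without the filter (adjusted p = 0.100), -1.0 with the block (0.0857), -1.01 with only the groups compared (0.204) and -1.25 to -0.48 with a library left out. Abcg1 had -2.37 (0.0578), -2.23 (0.0630), -2.41 (0.191) and -2.81 to -1.76 under the same alternatives. For HFSC against chow in KO, Srebf2 had 0.93 with library totals (0.0519), 0.75 without the filter (0.0589), 0.75 with only the groups compared (0.0576) and 0.48 to 0.94 with a library left out. Abcg1 had 1.96 without the filter (0.0712), 1.96 with the block (0.0564) and 1.69 to 2.25 with a library left out. Hmgcs1 averaged over the genotypes had 0.23 with RLE (0.0528), 0.25 with library totals (0.0690), 0.23 without the filter (0.151), 0.22 with the block (0.0996) and 0.18 to 0.28 with a library left out.

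Same-numbered samples of different groups had correlations of their deviations between -0.341 and 0.0776. Pairing by replicate number was thus not seen, though 2 or 3 shared numbers a comparison are too few to exclude it. Of 438 alternative values of the 33 called list results, 249 kept the call, 189 lost it and 0 changed sign. Sqle, Idi1 and Abcg1 rest on few reads, and differences within their counting error were not detectable at this depth.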
